A study of Mus musculus with 16 samples.

Results

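Lipogenesis, the making of fatty acids and triglycerides, was followed in artery sections through 10 genes: Thrsp, Acly, Me1, Acaca, Fasn, Elovl6, Scd1, Pck1, Dgat1 and Dgat2. They were taken by name from the deposited count table, as genes of fatty acid and triglyceride synthesis that the fat around the vessel expresses, and are 10 of its 55356 rows with a gene name. The 10 genes were chosen with earlier results of these data known. Shares of all genes given beside theirs below are therefore a background and no independent test of the list. All 10 passed the filter on low counts, which kept 10634 genes.

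Adipocytes build fatty acids in the cytosol from citrate. Acly splits citrate into acetyl-CoA, Acaca carboxylates acetyl-CoA to malonyl-CoA, and Fasn condenses these units into palmitate with NADPH, part of which Me1 supplies. Elovl6 lengthens palmitate, Scd1 introduces the first double bond, and Dgat1 and Dgat2 attach the last fatty acid to the glycerol backbone, for which Pck1 provides precursor in fat through glyceroneogenesis. Thrsp, also called Spot 14, is a small nuclear and cytosolic protein that thyroid hormone, carbohydrate and insulin induce in lipogenic tissue. Fat surrounds large arteries in mice, and sections of a whole vessel carry a part of it.

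RefSeq promoter windows, 250 bases before to 50 bases after the start of transcription, were at hand for 7 of the 10 genes in build GRCm38.p6, and not for Dgat1, Dgat2 and Scd1. The windows of Thrsp and Fasn are shown because these 2 genes moved together across libraries. That of Elovl6 is shown because its lowest group mean was in another group. Its lowest mean was in Apoe-/- mice at 42 weeks, and that of Thrsp and Fasn in Apoe-/-Mif-/- mice at 24 weeks. Capitals mark the CCAAT box (CCAAT on either strand), and each window is written 5′ to 3′ on the strand of the gene.
Thrsp, chr7:97417501-97417800, minus strand: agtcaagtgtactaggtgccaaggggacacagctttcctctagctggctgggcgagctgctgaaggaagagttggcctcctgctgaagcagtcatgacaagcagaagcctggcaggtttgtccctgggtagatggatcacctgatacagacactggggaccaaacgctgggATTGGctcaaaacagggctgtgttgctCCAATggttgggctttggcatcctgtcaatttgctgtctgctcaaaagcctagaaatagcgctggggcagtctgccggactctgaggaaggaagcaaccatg
Fasn, chr11:120824498-120824797, minus strand: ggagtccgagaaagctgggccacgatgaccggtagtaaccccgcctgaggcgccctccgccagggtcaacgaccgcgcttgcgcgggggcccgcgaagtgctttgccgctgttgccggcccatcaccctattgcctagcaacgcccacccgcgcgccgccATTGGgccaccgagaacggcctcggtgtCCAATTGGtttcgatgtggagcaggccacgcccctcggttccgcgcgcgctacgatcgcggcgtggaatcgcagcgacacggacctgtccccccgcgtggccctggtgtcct
Elovl6, chr3:129532136-129532435, plus strand: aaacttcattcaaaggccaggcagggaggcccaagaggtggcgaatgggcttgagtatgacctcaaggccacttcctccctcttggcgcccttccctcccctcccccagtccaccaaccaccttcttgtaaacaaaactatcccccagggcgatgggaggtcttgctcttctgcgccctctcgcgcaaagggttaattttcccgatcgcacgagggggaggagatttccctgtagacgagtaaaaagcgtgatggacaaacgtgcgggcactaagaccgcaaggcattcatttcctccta
The Thrsp window held CCAAT boxes that began 79 and 52 bases before the start, and the Fasn window held boxes at 90, 62 and 59 bases before it, of which the last 2 overlap. A CCAAT box also lay 37 bases after the start of Acly and 208 bases before a second start of Me1, so that 4 of the 7 genes had one. The Elovl6 window held none of the letters searched. At least 2 CCAAT boxes were present in 11.7% of the 32851 promoter windows in the table, and at least 1 in 37.4%. The GC box GGGCGG, present in 35.7% of all windows, was found in those of Acly, Me1 and Pck1. Neither the E-box CACGTG (7.15% of all windows) nor the sterol element TCACNCCAC (1.24%) nor TATAAA (13.6%) was found in a window of the 7 genes, which says only that these letters are not in the 300 bases.

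The tissue was the brachiocephalic artery, which leaves the aortic arch and is a common site of plaques in hypercholesterolaemic mice. There were 4 groups of 4 female mice, 1 library per mouse: Apoe-/-Mif-/- mice after 24 weeks of diet, Apoe-/- mice after 24 weeks, Apoe-/-Mif-/- mice after 42 weeks and Apoe-/- mice after 42 weeks. All mice lacked Apoe, and the Apoe-/-Mif-/- mice also lacked Mif, the gene of macrophage migration inhibitory factor, an inflammatory cytokine. The Western-type diet, with 0.2% cholesterol and 21.2% fat, began at 6 weeks of age, so that the mice were about 30 and 48 weeks old. Each library came from 3 to 4 frozen whole-vessel sections of 5 µm, pooled per mouse, with 1 ng of RNA amplified by Smart-seq2, a full-length method without molecular identifiers.

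Levels are given as CPM, a library's counts scaled to a common total after TMM normalisation. Libraries held 378066 to 8649525 counts, and the 10 genes took 0.00947% to 2.25% of them. Mif itself lay between 5.88 and 19.9 CPM in Apoe-/-Mif-/- and 104.85 and 177 CPM in Apoe-/- libraries at 24 weeks, and between 2.39 and 14.4 CPM in Apoe-/-Mif-/- and 23.2 and 301 CPM in Apoe-/- libraries at 42 weeks, without overlap at either time. The labelled tissue is a mixture of cells, and the fat it holds is not measured apart from the vessel wall. Adipoq, the adipocyte hormone adiponectin, was counted in each of the 16 libraries, at 0.655 to 1720.1 CPM. Of the 16 white adipocyte markers on a list, 15 were tested, and their summed level ran between 692 and 1715 CPM in Apoe-/-Mif-/- mice and 1129 and 25243 CPM in Apoe-/- mice after 24 weeks. After 42 weeks it ran between 1765 and 29772 CPM in Apoe-/-Mif-/- mice and 1726 and 14511 CPM in Apoe-/- mice. Leptin (Lep) had no count in the 4 Apoe-/-Mif-/- libraries at 24 weeks and in 9 of the other 12. Libraries 1 and 4 of the Apoe-/- mice at 24 weeks stood apart, with 5320 and 2184 CPM summed over fast striated muscle markers, against at most 456 CPM in any other library, and library 4 also with 2923 CPM of T cell markers against at most 251 CPM. The same 2 libraries had the lowest sums of macrophage markers, 4975 and 6510 CPM, against at least 15244 CPM in any other library. Their smooth muscle markers summed to 545 and 2024 CPM, against at least 3255 CPM in any other library. Library 1 of that group held the largest share of the CPM of 9 of the 10 genes, between 24.2% for Scd1 and 55.3% for Pck1, and for Acly library 4 did so with 23.8%. The 4 Apoe-/-Mif-/- libraries at 24 weeks carry the letter C in their names and the other 12 the letter B, and that letter and the group cannot be told apart.

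**Figure D1:**
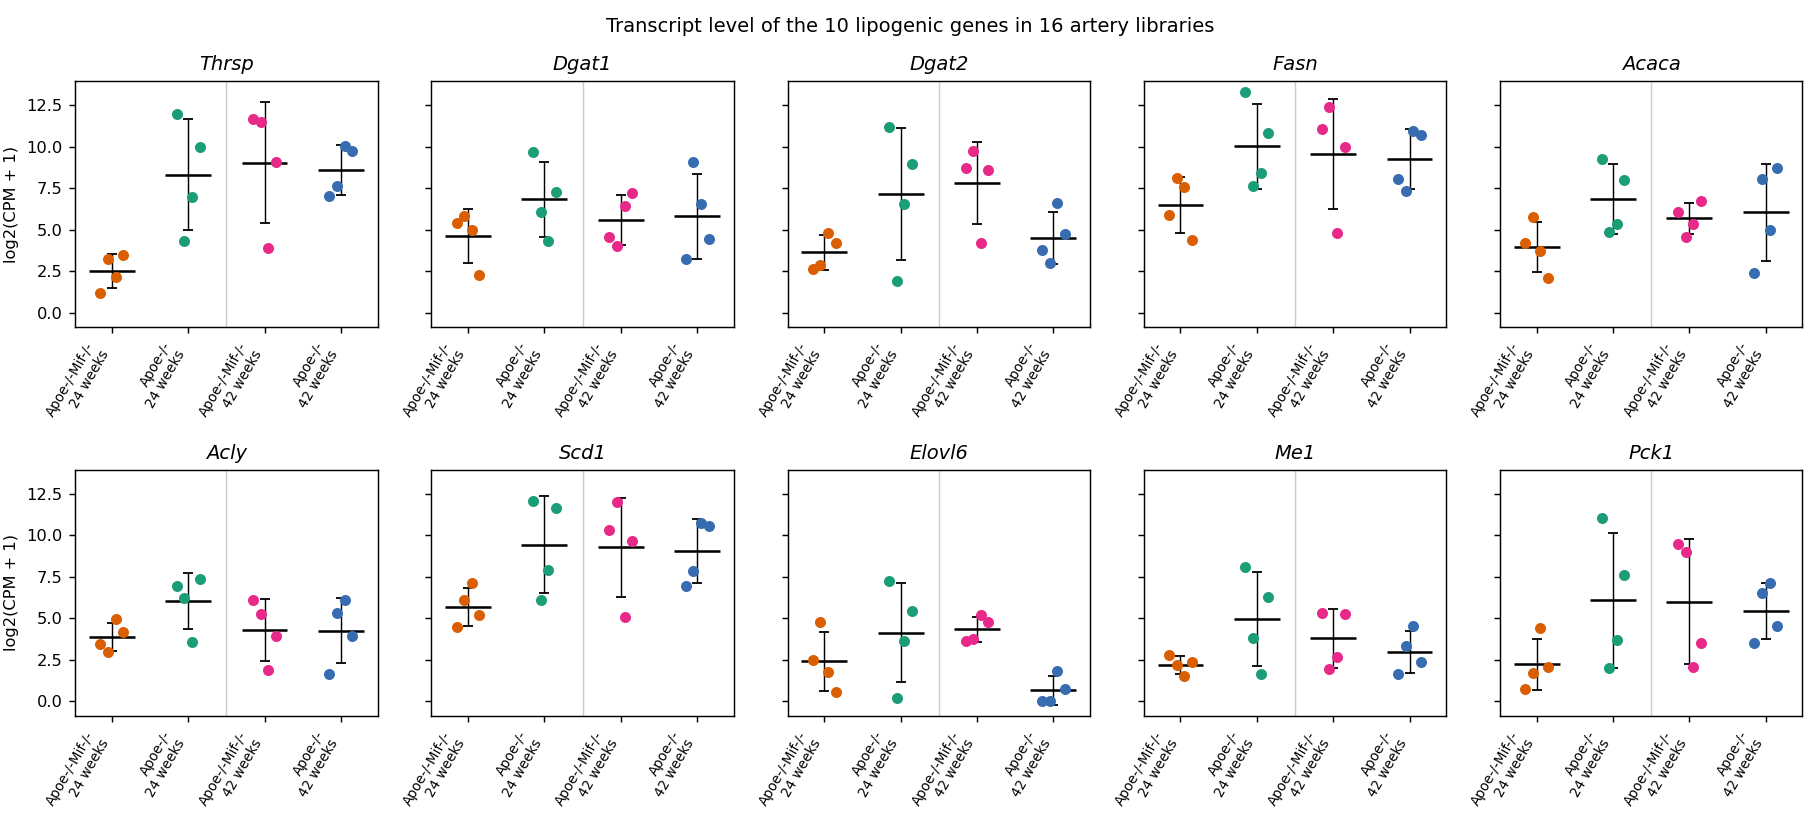
Level of each of the 10 lipogenic genes as log2(CPM + 1) in each of 16 artery libraries, with 1 point per mouse, in 4 groups by genotype and weeks of diet. Bars are the mean and SD of 4 libraries. For Thrsp, all 4 Apoe-/-Mif-/- libraries at 24 weeks lie at or under 10.2 CPM and below the 12 others.

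Per kilobase of exon (GENCODE M21 annotation), the order of the levels was Thrsp, Scd1, Fasn, Dgat1, Dgat2, Pck1, Acly, Acaca, Me1 and Elovl6, with medians over 16 libraries of 73.2 CPM per kb for Thrsp, 47.9 for Scd1, 27.6 for Fasn and 1.24 for Elovl6. The spread between mice was far larger than the steps in this order. Thrsp ranged 3001-fold between its highest and lowest library, Pck1 3262-fold, Fasn 497-fold and Scd1 208-fold, while the smallest such range among the 9 genes counted in every library, that of Acly, was 76.2-fold. The ranges of Thrsp, Pck1 and Acly are imprecise, since their lowest libraries held 2, 1 and 1 counts of them. Within the 40 sets of 4 libraries formed by 10 genes and 4 groups, none had a library beyond Dixon's 95% criterion for a single outlying value, a test that cannot detect 2 libraries of 4 standing apart together.

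The first question was what deletion of Mif did after 24 weeks of diet. Every gene of the 10 had a lower fitted level in Apoe-/-Mif-/- than in Apoe-/- arteries, as did 54.9% of all genes, with a median log2 fold change of -4.53, against -0.18 over all 10634 genes tested. Of the 10, 1 passed at a Benjamini-Hochberg adjusted p under 0.05 by edgeR's quasi-likelihood test over all genes, as did 0.047% of all genes. Of the 10, 8 were lower at an unadjusted p under 0.05, against 5.57% of all genes, and in 1 the groups did not overlap, which held for 2.29% of all genes in the lower direction. In sections with a mixture of cells, fewer cells of a type and less RNA per cell cannot be told apart.

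Thrsp fell. It had 1.31, 8.20, 3.45 and 10.2 CPM in the Apoe-/-Mif-/- libraries, from 81 counts in all, against 3931, 18.9, 124 and 1007 CPM in the Apoe-/- libraries. The highest library without Mif lay below the lowest with it, although the Apoe-/- group itself spanned more than 2 powers of 10. The mean was 5.78 ± 4.11 CPM in Apoe-/-Mif-/- and 1270.1 ± 1828 CPM in Apoe-/- mice (SD, n = 4 each), and the log2 fold change was -7.76 ± 1.37 (SE; edgeR adjusted p = 0.0191), the smallest p of all genes. The call was lost without library 1 of the Apoe-/- group (-6.03, adjusted p = 0.244) or without library 1, 3 or 4 of the Apoe-/-Mif-/- group (-7.45, -7.57 and -8.15, adjusted p = 0.146, 0.116 and 0.134). It was also lost with size factors in place of TMM (-7.88, adjusted p = 0.138), in a fit of the 8 libraries alone (-7.75, 0.126), with voom (-5.33, 0.668) and with the deposited log2 values (-5.21, 0.850). Plin1, which coats the lipid droplets of adipocytes, also fell (log2 fold change -9.39, edgeR adjusted p = 0.0466), with 5 counts in all in the Apoe-/-Mif-/- libraries, and each of the 15 white adipocyte markers tested had a negative fold change (median -3.33).

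The genes that make and modify fatty acids followed Thrsp in direction but did not pass. Fasn, the synthase itself, had 58.9, 272, 187 and 19.9 CPM in Apoe-/-Mif-/- libraries, against 9880.3, 197, 332 and 1768 CPM in Apoe-/- libraries. Scd1, the desaturase, had 21.0, 66.2, 136 and 35.2 CPM in Apoe-/-Mif-/- libraries, against 4355, 67.4, 238 and 3186 CPM in Apoe-/- libraries. For both genes libraries 1 and 4 of the Apoe-/- mice were high, and library 2 of that group lay within the range of the mice without Mif. The log2 fold changes were -4.50 ± 1.12 for Fasn (SE; edgeR adjusted p = 0.137) and -4.92 ± 1.12 for Scd1 (adjusted p = 0.100). Acaca, which makes malonyl-CoA, spanned 3.24 to 52.7 CPM in Apoe-/-Mif-/- and 27.5 to 609 CPM in Apoe-/- mice. Acly, which makes acetyl-CoA, spanned 6.97 to 30.0 CPM in Apoe-/-Mif-/- and 11.1 to 161 CPM in Apoe-/- mice. These 2 upstream enzymes had smaller differences than Fasn, at -3.44 for Acaca and -2.52 for Acly on the log2 scale (edgeR, adjusted p = 0.409 and 0.754). Me1, a source of NADPH, spanned 1.83 to 5.89 CPM in Apoe-/-Mif-/- and 2.18 to 273 CPM in Apoe-/- mice (log2 fold change -4.56, adjusted p = 0.365). Elovl6, the elongase, had its levels interleaved between the groups, and its log2 fold change was -2.57 (adjusted p = 0.830).

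Of the genes of triglyceride assembly, Dgat2, which esterifies newly made fatty acids, had 5.24, 6.15, 27.0 and 17.6 CPM in Apoe-/-Mif-/- libraries, against 2358, 2.70, 90.1 and 494 CPM in Apoe-/- libraries. Library 2 of the Apoe-/- mice had the lowest Dgat2 level of all 16. The log2 fold change was -5.71 ± 1.34 (SE; edgeR adjusted p = 0.105). Pck1, the glyceroneogenic enzyme, had 0.655, 2.26, 19.9 and 3.24 CPM in Apoe-/-Mif-/- libraries, against 2136, 3.04, 11.8 and 195 CPM in Apoe-/- libraries. Its groups overlapped, and the log2 fold change was -6.46 ± 1.65 (SE; adjusted p = 0.161). Dgat1, which shares the last step with Dgat2, had the smallest difference of the 3 genes, at -3.01 ± 1.27 (adjusted p = 0.540), with 3.70 to 54.6 CPM in Apoe-/-Mif-/- and 19.1 to 821 CPM in Apoe-/- mice.

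Without libraries 1 and 4 of the Apoe-/- mice at 24 weeks, which held the striated muscle transcripts, none of the 10 genes passed, and 0 of all genes did (edgeR). The fold change of Thrsp was then -3.61 (adjusted p = 1.00) and that of Elovl6 positive, at 0.54. This setting was chosen after the data were seen.

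**Figure D2:**
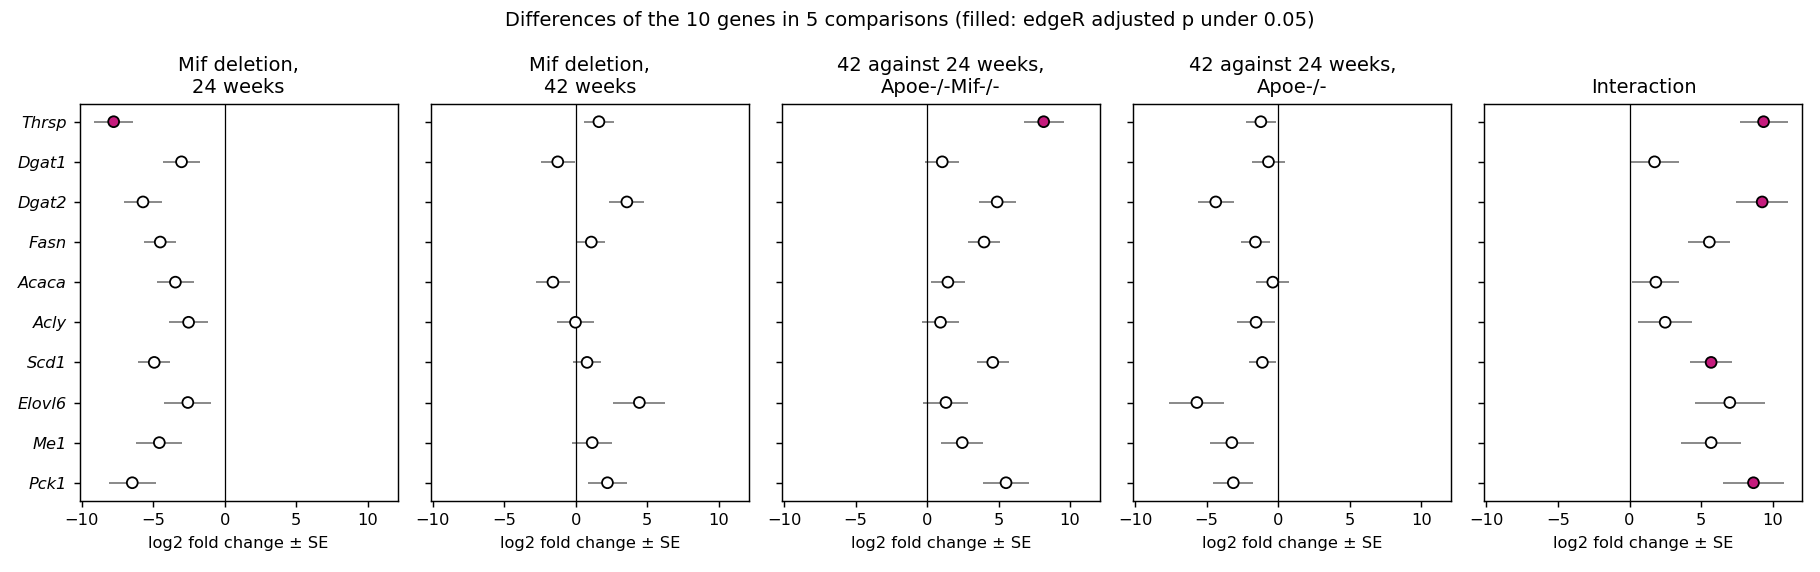
Log2 fold change and SE of each of the 10 genes in 5 comparisons from 1 edgeR fit over 16 libraries. Filled points passed at an adjusted p under 0.05: Thrsp in both comparisons that use the Apoe-/-Mif-/- mice at 24 weeks, and Thrsp, Dgat2, Scd1 and Pck1 in the interaction.

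After 42 weeks the same genotype comparison gave no call. None of the 10 genes passed, nor did any gene tested (0%). Of the 10, 7 had a higher and 3 a lower fitted level in Apoe-/-Mif-/- than in Apoe-/- arteries, while 51.8% of all genes were higher, with a median log2 fold change of 1.11, against 0.09 over all genes, and 2 were higher at an unadjusted p under 0.05, against 9.26% of all genes. DESeq2 called 2 of the 10 and 902 of all genes in this comparison, and 1835 genes (17.3%) had an unadjusted p under 0.05 in either direction by edgeR.

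Thrsp had 3297, 2825, 13.6 and 536 CPM in the Apoe-/-Mif-/- libraries at 42 weeks, against 126, 194, 1025 and 833 CPM in the Apoe-/- libraries. The mice without Mif now held both the highest and the lowest level, and the groups overlapped (log2 fold change 1.61 ± 1.04 SE, edgeR adjusted p = 0.416). Fasn had 2121, 5373, 26.3 and 989 CPM in Apoe-/-Mif-/- libraries, against 266, 159, 1946 and 1652 CPM in Apoe-/- libraries. Scd1 had 1256, 4167, 33.0 and 794 CPM in Apoe-/-Mif-/- libraries, against 124, 230.5, 1734 and 1536 CPM in Apoe-/- libraries. Library 3 of the Apoe-/-Mif-/- mice was the lowest of the 8 for all 3 genes, and libraries 1 and 2 of the Apoe-/- mice were low beside libraries 3 and 4. The fold changes of Fasn and Scd1 were 1.08 and 0.78 on the log2 scale (edgeR adjusted p = 0.588 and 0.703).

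Elovl6 and Dgat2 had the largest differences of the 10 genes at 42 weeks. Elovl6 had 11.3, 12.5, 35.2 and 26.2 CPM in Apoe-/-Mif-/- libraries, from 239 counts, against 0, 0, 2.60 and 0.698 CPM in Apoe-/- libraries, from 11 counts. It was the only gene of the 10 whose groups did not overlap here, which held for 1.17% of all genes in the higher direction. A count of 0 allows up to 5.91 CPM in library 1 and 0.874 CPM in library 2 of the Apoe-/- mice, counting error only, and both limits lie under the lowest library without Mif. The log2 fold change was 4.44 ± 1.82 (SE; edgeR adjusted p = 0.215). Dgat2 had 425, 862, 17.2 and 379.7 CPM in Apoe-/-Mif-/- libraries, against 12.6, 6.80, 95.9 and 25.1 CPM in Apoe-/- libraries. Here 3 of 4 libraries without Mif lay above every library with it (log2 fold change 3.57 ± 1.21 SE, adjusted p = 0.176). Pck1 had 708, 506, 3.11 and 10.3 CPM in Apoe-/-Mif-/- libraries, against 10.54, 91.6, 139 and 22.3 CPM in Apoe-/- libraries, with 2 high and 2 low mice among those without Mif (2.21, adjusted p = 0.390). Dgat1, Acaca and Acly were the 3 genes with negative fold changes, at -1.27, -1.60 and -0.03, and Me1 was at 1.14. In the Apoe-/- mice Dgat1 was at 533 CPM in library 2, with at most 91.5 CPM in the others. Acaca there was at 410.2 CPM in library 4 and 264 CPM in library 2, with at most 30.9 CPM in the others, so 1 or 2 mice held most of either sum.

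The second question was how arteries after 42 weeks of diet differed from those after 24 weeks in each genotype. The mice were then about 48 and 30 weeks old, so diet duration and age cannot be told apart here or in the interaction. In Apoe-/-Mif-/- mice all 10 genes had positive fold changes, as did 52.9% of all genes, with a median of 3.22 on the log2 scale, against 0.12 over all genes, and 1 of the 10 passed, as did 0.122% of all genes (13 genes, all higher). Thrsp rose, to 1668 ± 1634 CPM after 42 weeks against 5.78 ± 4.11 CPM after 24 weeks (SD, n = 4 each; log2 fold change 8.15 ± 1.39 SE, edgeR adjusted p = 0.0106), without overlap, which held for 1.35% of all genes in the higher direction. Even the lowest 42-week mouse, at 13.6 CPM, was above the highest 24-week mouse, at 10.2 CPM, a narrow margin beside the spread within the 42-week group. The call was lost without library 1, 3 or 4 of the 24-week group (7.84, 7.96 and 8.54, adjusted p = 0.0845, 0.0520 and 0.0832), and held without each library of the 42-week group in turn; voom gave 5.89 (adjusted p = 0.515). Scd1 was at 4.59 ± 1.11 (adjusted p = 0.0909), Dgat2 at 4.90 ± 1.29 (0.114), Fasn at 3.98 ± 1.09 (0.132) and Pck1 at 5.52 ± 1.58 (0.158), each a log2 fold change with its SE and edgeR adjusted p. With Thrsp these were the 5 genes higher at an unadjusted p under 0.05, against 7.45% of all genes. Acly, Dgat1, Elovl6, Acaca and Me1 were between 0.94 and 2.46. Car3 and Plin1 were the white adipocyte markers that rose with Thrsp (7.71 and 8.91, adjusted p = 0.0250 and 0.0401), and all 15 markers tested had positive fold changes, with a median of 3.60.

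In Apoe-/- mice all 10 genes had negative fold changes at 42 against 24 weeks, as did 52.7% of all genes, with a median of -1.58, against -0.12 over all genes, and none passed, like every gene tested (0%). DESeq2 called 2 of the 10 and 391 of all genes, and 1301 genes (12.2%) had an unadjusted p under 0.05 in either direction by edgeR. The genes lower at an unadjusted p under 0.05 were Elovl6, Dgat2, Me1 and Pck1, at -5.69, -4.37, -3.25 and -3.15, against 8.36% of all genes. Dgat2 averaged 35.1 ± 41.2 CPM after 42 weeks and 736 ± 1102 CPM after 24 weeks (SD, n = 4 each; edgeR adjusted p = 0.322). Elovl6 averaged 0.824 ± 1.23 CPM after 42 weeks and 51.02 ± 68.6 CPM after 24 weeks (adjusted p = 0.322), and the groups overlapped through library 2 of the 24-week mice, which held 1 Elovl6 count. Thrsp (-1.22), Scd1 (-1.11) and Fasn (-1.60) differed less. Without libraries 1 and 4 of the 24-week mice 7 of the 10 fold changes were positive, with Thrsp at 2.93, Scd1 at 2.57 and Fasn at 1.93.

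Whether the genotype difference itself differed between the durations was tested as an interaction, the log2 fold change of Mif deletion at 42 weeks minus that at 24 weeks. All 10 values were positive, as were 54% of all genes, with a median of 5.71, against 0.26 over all genes. Of the 10 genes 4 passed, as did 0.686% of all genes (62 positive, or 0.583%, and 11 negative). Of the 10, 7 were positive at an unadjusted p under 0.05, against 9.36% of all genes. Thrsp was at 9.37 ± 1.68 (SE; edgeR adjusted p = 0.0136), with the smallest p of all genes, Dgat2 at 9.27 ± 1.81 (adjusted p = 0.0176), Pck1 at 8.67 ± 2.11 (adjusted p = 0.0452) and Scd1 at 5.71 ± 1.45 (adjusted p = 0.0498). For these 4 genes the mean without Mif was higher at 42 than at 24 weeks, and the mean with Mif was lower at 42 than at 24 weeks. Fasn narrowly missed the threshold (5.58 ± 1.46, adjusted p = 0.0608). Elovl6 (7.01 ± 2.44) and Me1 (5.71 ± 2.12) had adjusted p = 0.174 and 0.200, and Acly, Acaca and Dgat1 were between 1.75 and 2.49. None of the 10 passed without library 1 of the Apoe-/- mice at 24 weeks, or without library 1 or 2 of the Apoe-/- mice at 42 weeks. In the same 3 settings the value of Thrsp was 7.64, 9.04 and 9.21, that of Dgat2 7.36, 9.01 and 9.09, that of Pck1 5.61, 8.32 and 9.10 and that of Scd1 4.95, 5.34 and 5.51. Dgat2 also missed without library 4 of the Apoe-/- mice at 42 weeks (9.33, adjusted p = 0.0542). Pck1 lost its call in 10 of the 16 fits without 1 library, and Scd1 kept its call only without library 3 of the Apoe-/-Mif-/- mice at 42 weeks or library 2 or 3 of the Apoe-/- mice at 24 weeks. With voom and with the deposited values none of the 4 passed.

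Genes of fat and striated muscle passed for Mif deletion at 24 weeks and in the interaction, and 1 endothelial gene passed in the interaction. A fit with a white adipocyte score as a covariate is given further on. It does not measure which part of the values of the 10 genes comes from adipocytes. The part of the other markers and of mitochondrial reads was not tested. Adipoq averaged 9.44 ± 17.0 CPM in Apoe-/-Mif-/- and 301 ± 293 CPM in Apoe-/- mice at 24 weeks, and 534 ± 797 CPM in Apoe-/-Mif-/- and 130.05 ± 148 CPM in Apoe-/- mice at 42 weeks (SD, n = 4 each). Its interaction was 6.995 ± 1.98 (SE; edgeR adjusted p = 0.0806), that of Plin1 12.58 (adjusted p = 0.0136), and 14 of 15 white adipocyte markers were positive (median 4.48). Ucp1, the uncoupling protein of brown fat, averaged 4.99 ± 7.95 CPM in Apoe-/-Mif-/- and 1162 ± 1621 CPM in Apoe-/- mice at 24 weeks, and 340 ± 626 CPM in Apoe-/-Mif-/- and 20.1 ± 8.09 CPM in Apoe-/- mice at 42 weeks. It passed in the interaction (11.89, edgeR adjusted p = 0.0136), as did 3 other genes among the 7 tested of the 9 listed brown fat markers, Cidea, Cox8b and Elovl3. The summed level of the brown markers spanned 109 to 242 CPM in Apoe-/-Mif-/- and 78.5 to 15689 CPM in Apoe-/- mice at 24 weeks, and 51.004 to 5116 CPM in Apoe-/-Mif-/- and 149.6 to 343 CPM in Apoe-/- mice at 42 weeks. Of 5 fast striated muscle genes tested, Atp2a1, Myh4 and Tnnt3 passed as lower in Apoe-/-Mif-/- mice at 24 weeks, and these 3 and Acta1 as positive in the interaction. Of 6 endothelial genes, Kdr, a receptor for VEGF, passed in the interaction (9.64, edgeR adjusted p = 0.0432). Of the same 6 genes, 4 had negative values in the interaction (median -0.51). None of 5 T cell genes passed, but all 5 were lower for Mif deletion at 24 weeks at an unadjusted p under 0.05 by edgeR (median -4.22), against 5.57% of all genes. At that threshold 3 were lower for duration in Apoe-/- mice (median -5.89), against 8.36% of all genes, and 3 were positive in the interaction (median 6.27), against 9.36%. Library 4 of the Apoe-/- mice at 24 weeks held 534 CPM of Cd3g, 1251 of Cd8b1 and 1079 of Lck, against at most 1.85, 24.2 and 72.2 CPM in the rest of that group. For Trac library 3 of that group was the highest, at 34.0 CPM. Mitochondrial genes took 1.08% to 3.06% of counts in Apoe-/-Mif-/- and 0.751% to 10.2% in Apoe-/- libraries at 24 weeks, and 1.94% to 8.64% in Apoe-/-Mif-/- and 1.57% to 3.55% in Apoe-/- libraries at 42 weeks. They were high in the libraries in which the lipogenic genes were high at 24 weeks, libraries 1 and 4 of the Apoe-/- mice (10.2% and 6.31%), and in libraries 1, 2 and 4 of the Apoe-/-Mif-/- mice at 42 weeks (6.01%, 7.30% and 8.64%). The 2 shares did not always go together. Library 3 of the Apoe-/- mice at 42 weeks held 0.548% of its counts in the 10 genes and 1.74% in mitochondrial genes. Library 4 of the Apoe-/-Mif-/- mice at 42 weeks, with 8.64% in mitochondrial genes, held 0.209% in the 10 genes.

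The other genes of the pathway came from lists chosen with earlier results of these data known. Of 22 other genes of fatty acid synthesis, 18 were tested, and after 24 weeks 12 were lower and 6 higher in Apoe-/-Mif-/- than in Apoe-/- mice (median -0.49), with none called. In the interaction 1 passed in each direction. Elovl3, an elongase of brown fat, had no count in the 4 Apoe-/-Mif-/- libraries at 24 weeks and passed upwards (edgeR adjusted p = 0.0388); its fitted fold change depends on the prior count and is not given. Mcat, which loads malonyl groups in mitochondrial fatty acid synthesis, passed downwards (-9.14 ± 2.28, adjusted p = 0.0498). It had 2.05, 0, 1.68 and 1.29 CPM in the 4 Apoe-/-Mif-/- libraries at 42 weeks, against 6.32, 38.7, 133 and 139 CPM in the Apoe-/- libraries. At 24 weeks Mcat had 9.82, 28.3, 79.5 and 1.39 CPM in Apoe-/-Mif-/- libraries, against 1.52, 3.88, 5.55 and 0.938 CPM in Apoe-/- libraries, so that its direction in the interaction was opposite to that of the 10 genes. Acacb, the mitochondrial acetyl-CoA carboxylase, was at -5.70 for Mif deletion at 24 weeks (adjusted p = 0.226) and 7.62 in the interaction (adjusted p = 0.0685).

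Of 19 other genes of triglyceride synthesis 14 were tested. All 14 were lower in Apoe-/-Mif-/- mice after 24 weeks, with a median of -1.93 and none called. Gpd1, which makes glycerol 3-phosphate from a glycolytic intermediate, had 1.31, 61.7, 2.23 and 1.85 CPM in Apoe-/-Mif-/- libraries, against 3669, 8.95, 9.04 and 416 CPM in Apoe-/- libraries (log2 fold change -5.91, edgeR adjusted p = 0.150). Agpat2, an acyltransferase whose loss causes lipodystrophy, was at -4.93 (adjusted p = 0.205). In the interaction Gpd1 was the gene of this list that passed (7.65 ± 1.92, adjusted p = 0.0498), and 13 of the 14 values were positive (median 2.91).

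The regulators were divided in direction. Of 20 listed regulators 15 were tested, and 10 were lower and 5 higher in Apoe-/-Mif-/- mice after 24 weeks (median -0.60). Mlxipl, the glucose-responsive factor ChREBP, had 0.655, 0.410, 0.609 and 2.78 CPM in Apoe-/-Mif-/- libraries, against 901, 1.52, 5.77 and 128 CPM in Apoe-/- libraries, again with libraries 1 and 4 high (log2 fold change -7.86 ± 1.80 SE, edgeR adjusted p = 0.100). It was the only listed regulator that passed in the interaction (9.26 ± 2.21, adjusted p = 0.0432). Srebf1, whose product SREBP-1 drives lipogenic genes under insulin, had 55.0, 140.1, 164 and 450.6 CPM in Apoe-/-Mif-/- libraries, against 737, 249, 167 and 275 CPM in Apoe-/- libraries at 24 weeks. Its fold changes were -0.82 ± 0.91 at 24 weeks, -0.70 ± 0.91 at 42 weeks and 0.12 ± 1.28 in the interaction (adjusted p = 0.955, 0.723 and 0.983). Of 12 genes of NADPH and pyruvate supply, all tested, 10 were lower in Apoe-/-Mif-/- mice after 24 weeks (median -1.10) and none passed in any comparison. The smallest p-values among them were those of Pcx, pyruvate carboxylase (-5.00, adjusted p = 0.291), and Mpc2, a subunit of the mitochondrial pyruvate carrier (-2.74, adjusted p = 0.344).

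The 10 genes differed in how closely they followed adipocyte transcripts across libraries. A white adipocyte score, the mean log2 CPM of the 15 tested markers, none of them among the 10 genes, ran from 3.26 to 9.66. Across 16 libraries the Pearson and Spearman correlations with this score were 0.971 and 0.971 for Scd1, 0.944 and 0.921 for Fasn, 0.921 and 0.882 for Thrsp, 0.908 and 0.903 for Dgat2, and 0.862 and 0.888 for Pck1. Each of these had a permutation p of at most 4e-05 and an adjusted p of at most 0.000101 over the 38 p-values of 19 relations, and the smallest p that the permutations can give is 1e-05. They were lower for Me1 (0.598 and 0.388), Acly (0.566 and 0.559), Acaca (0.548 and 0.521), Elovl6 (0.502 and 0.446) and Dgat1 (0.314 and 0.288), with permutation adjusted p for the Pearson value of 0.0263, 0.0381, 0.0418, 0.0602 and 0.273. Without the 2 libraries farthest from the median score, Pearson's r stayed at 0.962 for Scd1, 0.915 for Fasn, 0.897 for Thrsp, 0.859 for Dgat2 and 0.787 for Pck1. Within the 12 libraries of letter B it was 0.957, 0.942, 0.941, 0.912 and 0.808 for the same 5 genes.

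Libraries were also split at the median score, into 8 at or under 5.20 and 8 at or above 6.401. The lower set held all 4 Apoe-/-Mif-/- libraries at 24 weeks, those of letter C, and the upper set none of them. Values of r within a set therefore also carry differences between groups, and in the lower set between letters. Within the 8 lowest, Pearson's r was 0.900 for Scd1, 0.764 for Pck1, 0.673 for Fasn, 0.572 for Thrsp and 0.301 for Dgat2. Within the 8 highest it was 0.844 for Scd1, 0.817 for Pck1, 0.922 for Fasn, 0.843 for Thrsp and 0.768 for Dgat2. The differences in r between the sets were not tested, and the score spans a narrower range in the lower set, 3.26 to 5.20, than in the upper, 6.401 to 9.66. Acly, Elovl6 and Me1 had no positive r within the 8 lowest, at -0.02, -0.17 and -0.43.

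**Figure D3:**
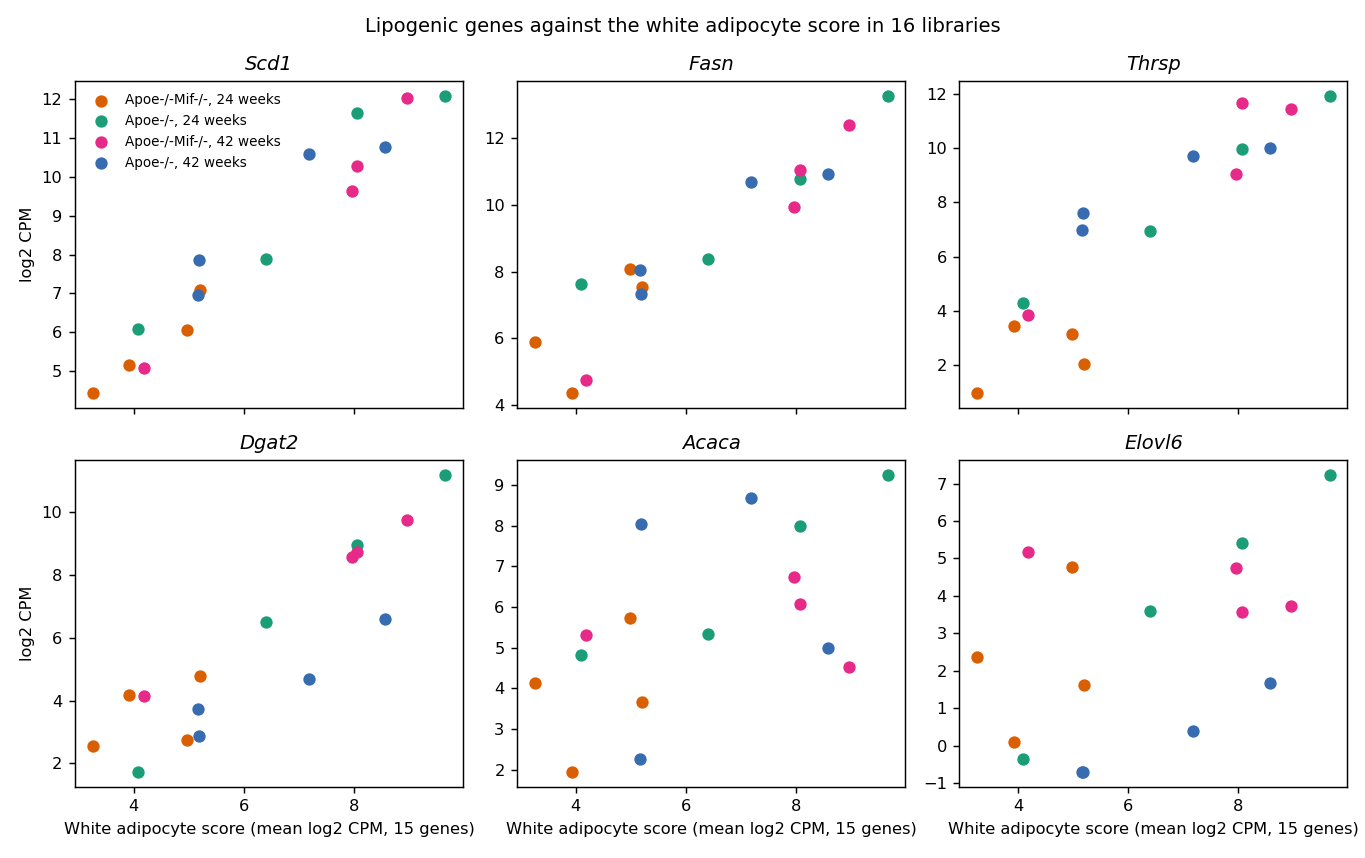
Log2 CPM of 6 of the genes against the white adipocyte score (mean log2 CPM of 15 marker genes) in 16 libraries, coloured by group. Scd1, Fasn and Thrsp rise steadily with the score, Dgat2 less so in the Apoe-/- mice at 42 weeks, and Acaca and Elovl6 are scattered.

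With the score as a covariate in the edgeR fit, none of the 10 genes passed in any of the 5 comparisons, nor did any other gene for Mif deletion at 24 weeks, for 42 against 24 weeks in Apoe-/-Mif-/- mice or in the interaction. The score comes from the same libraries and followed Thrsp, Fasn, Scd1, Dgat2 and Pck1 closely. All 15 of its markers were lower for Mif deletion at 24 weeks, so the fit cannot fully separate score from group. Values with the score are a description and no measure of a share due to adipocytes. The median fold change of the 10 genes for Mif deletion at 24 weeks was then -0.95 with the score, against -4.53 without it. In the interaction the median was 0.90 with the score, against 5.71 without it. Thrsp was at -2.03 for Mif deletion at 24 weeks (adjusted p = 0.999), at 2.82 for 42 against 24 weeks in Apoe-/-Mif-/- mice (adjusted p = 0.470) and at 1.66 in the interaction (adjusted p = 0.799). For Mif deletion at 24 weeks Scd1 was at -0.47, Fasn at -0.29, Pck1 at -0.06 and Dgat2 at -0.05 with the score. With the score all 10 values lay nearer 0 for Mif deletion at 24 weeks, for duration in Apoe-/-Mif-/- mice and in the interaction, 9 did so for duration in Apoe-/- mice, and 5 did so for Mif deletion at 42 weeks. Elovl6 was among the other 5 there, at 5.78 with the score (adjusted p = 0.244), against 4.44 without it.

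**Figure D4:**
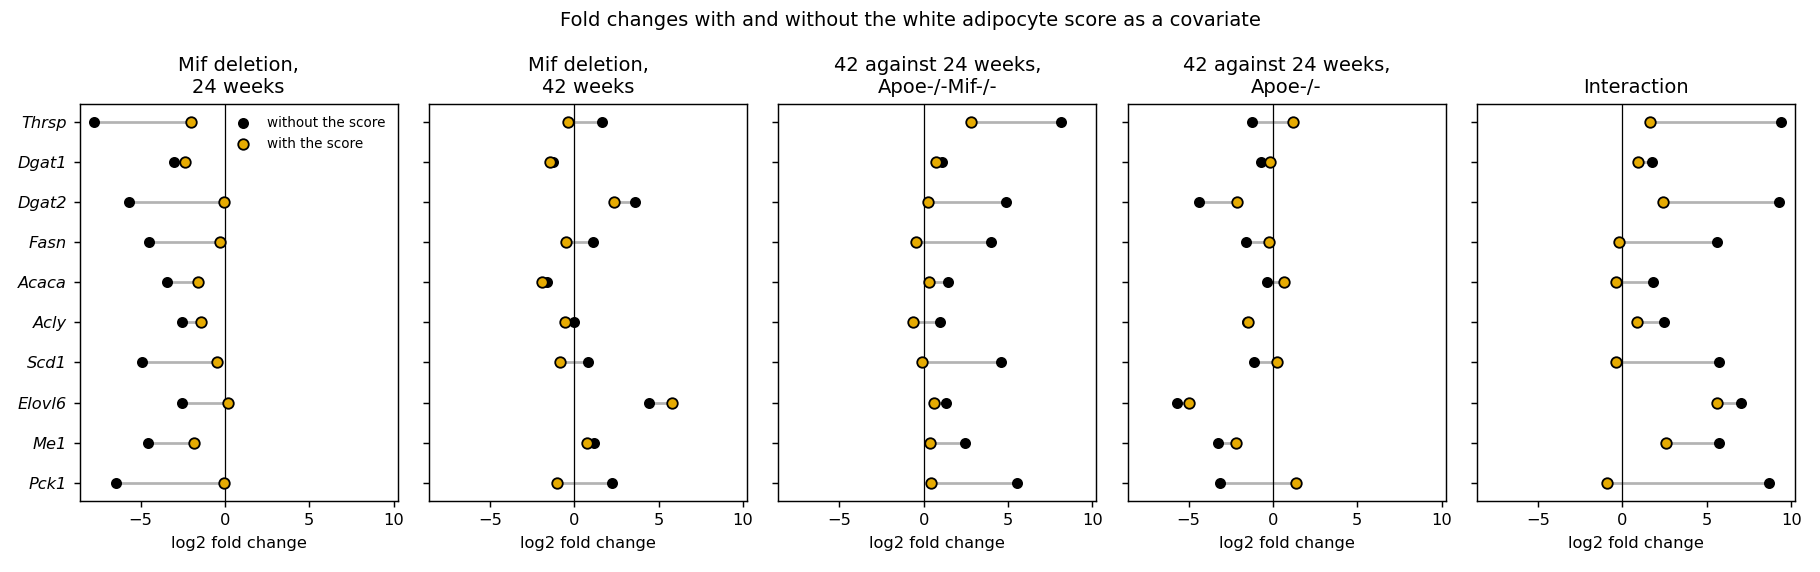
Log2 fold change of each of the 10 genes in 5 comparisons, without the white adipocyte score in the edgeR fit (black) and with it as a covariate (yellow). All 10 values lie nearer 0 with the score in 3 of the comparisons, such as Thrsp for Mif deletion at 24 weeks, at -2.03 with it and -7.76 without it, while 5 values for Mif deletion at 42 weeks, Elovl6 among them, lie farther from it.

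Among themselves the 10 genes formed 45 pairs, with Pearson correlations of log2 CPM over 16 libraries between 0.18 (Elovl6 and Acly) and 0.95 (Scd1 and Fasn) and a median of 0.57. Of all genes tested, those whose pattern was most like that of Thrsp were Scd1 (0.93), Car3 (0.93), Mpc2 (0.90), Gpd1 (0.89), Cd36 (0.88), Fasn (0.88), Adipoq (0.87), Idh3g (0.87), Pck1 (0.86) and Cfd (0.86). Adipoq, Car3, Cd36 and Cfd are on the list of white adipocyte markers, and Idh3g is a subunit of the mitochondrial NAD-dependent isocitrate dehydrogenase. Dgat2 was most like Slc2a4, the insulin-responsive glucose transporter (0.92), Adig (0.92) and Cox8b, a subunit of cytochrome oxidase on the list of brown fat markers (0.91). Fasn was most like Scd1, Fabp4 and Cidec, and Scd1 most like Fasn, Thrsp and Adig. Pck1 was most like Cd1d1 (0.88), Scd1 (0.88) and Adig (0.88). Elovl6 was most like Gys1, the glycogen synthase of muscle and other tissues (0.86), Gigyf1 (0.80) and Slc9a3r2 (0.79). Acaca was most like Adcy6, Ablim1 and Sri (0.84, 0.81 and 0.81), and Acly like Chpt1, Parm1 and Uqcrc1 (0.89, 0.81 and 0.79). Dgat1 was most like Eif3a, Ndufv1 and Ciao2a (0.86, 0.86 and 0.84), and Me1 like Nprl2, Cdc14b and Etfa (0.86, 0.86 and 0.85). The 3 most similar genes included a listed adipocyte marker for Thrsp, Dgat2 and Fasn, and none for Scd1, Pck1, Elovl6, Acaca, Acly, Dgat1 and Me1. This split depends on the list, which does not hold Adig, and does not set Scd1 and Pck1 apart from adipocyte markers. Their Pearson correlations with the white adipocyte score were 0.971 and 0.862. These values are a description, over 16 libraries that differ in depth and tissue composition.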

How the data were processed

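Bulk RNA was sequenced from 16 brachiocephalic arteries, 4 mice in each of 4 groups, with groups taken from the labels. Reads were processed with cutadapt 1.18, Trim Galore 0.6.4, FastQC 0.11.5 and STAR 2.5.2b on build GRCm39, per the submitters' processing notes. The counting program and annotation are not given in the sources used here. The deposited table holds raw counts per gene in 55359 rows; 1 blank row (at most 0.00257% of a library) and 2 reporter rows were left out. A further deposited table holds values on a log2 scale that the authors made by a variance-stabilising transformation for 9578 genes, and it was used as an alternative.

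Counts were tested with edgeR 4.0.16 (R 4.3.3; quasi-likelihood test, TMM scaling, filterByExpr with a minimum count of 10 and a total of 15), in 1 fit over 16 libraries with 12 residual degrees of freedom. P-values were adjusted by Benjamini and Hochberg's method over 10634 genes, with a threshold of 0.05, and measure the spread between mice. The SE of a fold change was worked back from the test, as its absolute value divided by the square root of the quasi-likelihood F statistic. Log2 CPM used a prior count of 2. The libraries do not keep strand, so overlapping and antisense genes cannot be told apart. Limits for a count of 0 stand for 3 counts and cover counting error only, since reads without molecular identifiers are not independent molecules. Total counts of 378066 to 8649525 per library set the precision of low values. No 2 libraries held identical values (0 pairs). The fit was tested on simulated data.

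The 10 genes and all gene lists were chosen with earlier results of these data known. The rule for naming genes took the 10 genes, Adipoq, Plin1 and Ucp1, of each list the genes called and the 2 with the smallest p in a comparison, the 10 genes most like Thrsp and the 3 most like each other gene, leaving out predicted genes; not all of the 2 with the smallest p are printed. Mcat and Srebf1 levels in every library, and the Mid1ip1 means, were chosen after their values were seen. Correlations used 100000 permutations (two-sided; numpy 2.4.6, pandas 2.3.3). Lengths came from GENCODE M21 and promoters from RefSeq (GRCm38.p6), by gene symbol, and neither was used with coordinates of the authors' build.

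Alternatives were size factors in place of TMM, DESeq2 1.42.0, limma 3.58.1 with voom, no filter on low counts, the deposited log2 values with limma, the white adipocyte score as a covariate, only the 8 libraries compared, and each library left out in turn. Leaving out libraries 1 and 4 of the Apoe-/- mice at 24 weeks together was added after the data were seen.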

Additional observations from a re-analysis of the deposited data

Results flagged for a closer look

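For 4 of the 10 lipogenic genes the difference between Apoe-/-Mif-/- and Apoe-/- arteries was not the same after 42 weeks of diet as after 24 weeks, by edgeR's test of the interaction over all genes. The genotype difference at 42 weeks minus that at 24 weeks was 9.37 on the log2 scale for Thrsp, 9.27 for Dgat2, 8.67 for Pck1 and 5.71 for Scd1, with adjusted p = 0.0136, 0.0176, 0.0452 and 0.0498. For each gene the fold change was negative at 24 weeks and positive at 42 weeks, and none of the 4 passed at 42 weeks by itself (edgeR adjusted p = 0.416, 0.176, 0.390 and 0.703 in the same order). At 42 weeks Thrsp, Pck1 and Scd1 had negative values with voom (-0.64, -0.56 and -0.83) and with the adipocyte score as covariate (-0.37, -1.001 and -0.82). None of the 4 interaction calls held without library 1 of the Apoe-/- mice at 24 weeks, without library 1 or 2 of the Apoe-/- mice at 42 weeks, with voom, with the deposited log2 values or with the score.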

How the results depend on the processing

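No paired analysis was possible because the labels give the mice separate identifiers and no replicate numbers that groups share. Counts of calls moved with the tool, and the cause was not tested. For Mif deletion at 24 weeks, 5 genes and 1 of the 10 were called; 210 and 6 were called by DESeq2, 117 and 5 without the filter on low counts, and 0 and 0 with size factors, voom, the deposited log2 values, the adipocyte score as covariate, only the 8 libraries compared, or without libraries 1 and 4 of the Apoe-/- mice. For Mif deletion at 42 weeks (0 and 0), DESeq2 called 902 and 2, the fit without a filter 150 genes and that on 8 libraries 25 genes. For duration in Apoe-/-Mif-/- mice (13 and 1), DESeq2 called 562 and 5, the fit without a filter 419 and 5, size factors 22 genes, the deposited values 2 genes, voom and the covariate 0 and 0, and the fit on 8 libraries 2 of the 10. For duration in Apoe-/- mice (0 and 0), DESeq2 called 391 and 2 and the fit without a filter 18 genes. For the interaction (73 and 4), DESeq2 called 543 and 7, the fit without a filter 426 genes, and voom, the deposited values, the covariate and the fit without libraries 1 and 4 called 0 and 0.

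With each library left out in turn, calls ran from 0 to 26 genes and 0 to 5 of the 10 for Mif deletion at 24 weeks, 0 to 1 genes and 0 at 42 weeks, 0 to 30 genes and 0 to 3 for duration in Apoe-/-Mif-/- mice, 0 and 0 for duration in Apoe-/- mice, and 0 to 86 genes and 0 to 5 for the interaction; the settings that moved the last count by over 1.5 times reached 38 genes and 2 of the 10. Size factors shifted the median of all genes by 0.06 and 0.19 for Mif deletion at 24 and 42 weeks, 0.42 and 0.28 for duration in Apoe-/-Mif-/- and Apoe-/- mice, and 0.11 in the interaction.

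Of the single-gene values under all alternatives, 697 kept direction and side of the threshold, 60 lost the call, 38 gained it and 54 changed sign. With the covariate, Elovl6 was 0.18 for Mif deletion at 24 weeks; Thrsp, Fasn, Scd1 and Pck1 were -0.37, -0.51, -0.82 and -1.001 at 42 weeks; Fasn, Acly and Scd1 were -0.46, -0.61 and -0.10 for duration in Apoe-/-Mif-/- mice; Thrsp, Acaca, Scd1 and Pck1 were 1.17, 0.67, 0.25 and 1.36 for duration in Apoe-/- mice; and Fasn, Acaca, Scd1 and Pck1 were -0.22, -0.36, -0.35 and -0.94 in the interaction. With voom, Thrsp, Fasn, Scd1 and Pck1 were -0.64, -0.69, -0.83 and -0.56 for Mif deletion at 42 weeks, and Thrsp, Dgat1, Fasn, Scd1 and Pck1 were 1.19, 0.062, 0.012, 0.57 and 0.66 for duration in Apoe-/- mice, where Thrsp was 0.56 with the deposited values. Acly for Mif deletion at 42 weeks, at -0.03, was 0.79 with size factors, 0.78 with DESeq2, 0.11 without a filter and 0.33 both with the deposited values and on 8 libraries. Without libraries 1 and 4 of the Apoe-/- mice at 24 weeks, Elovl6 was 0.54 for Mif deletion; Thrsp, Dgat1, Fasn, Acaca, Scd1, Me1 and Pck1 were 2.93, 1.94, 1.93, 2.39, 2.57, 0.33 and 3.15 for duration in Apoe-/- mice; and Dgat1 and Acaca were -0.88 and -0.93 in the interaction. Over single libraries left out, Acly, Dgat1 and Scd1 for Mif deletion at 42 weeks ran from -0.72 to 0.70, -1.99 to 0.82 and -0.24 to 1.31; Thrsp, Dgat1, Fasn and Acaca for duration in Apoe-/- mice ran from -1.72 to 0.51, -2.74 to 1.06, -2.14 to 0.39 and -1.21 to 0.74; and Dgat1 in the interaction ran from -0.0037 to 3.92. Depth limits the low genes most: Elovl6 rested on 11 counts in the 4 Apoe-/- libraries at 42 weeks.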

Other observations

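These values were chosen after they were seen. Libraries with nearly the same white adipocyte score differed in Thrsp. Library 3 of the Apoe-/-Mif-/- mice at 24 weeks had a score of 5.20 and 3.45 CPM of Thrsp, while libraries 1 and 2 of the Apoe-/- mice at 42 weeks had scores of 5.17 and 5.18 and 126 and 194 CPM of Thrsp. Scd1, set beside the same scores, had 136 CPM in that Apoe-/-Mif-/- library, against 124 and 230.5 CPM in the 2 Apoe-/- libraries. That library differs from the 2 Apoe-/- libraries in genotype, diet duration and letter, and the cause was not tested. Library 2 of the Apoe-/- mice at 42 weeks, with the score of 5.18, also held 533 CPM of Dgat1 and 264 CPM of Acaca, levels exceeded for Dgat1 in 1 other library and for Acaca in 2. Mid1ip1, which encodes a paralog of the Thrsp protein, did not share its order of groups, with means of 63.1 CPM in Apoe-/-Mif-/- and 22.7 CPM in Apoe-/- mice at 24 weeks, and 39.6 CPM in Apoe-/-Mif-/- and 85.2 CPM in Apoe-/- mice at 42 weeks.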
